A study of Mus musculus with 7 samples.

Results

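The core circadian clock genes described here are Clock, Arntl, Per1, Per2, Per3, Cry1, Cry2, Nr1d1, Nr1d2 and Dbp, taken by gene symbol from a count table of 21861 rows. All 10 were found, and all 10 passed the expression filter that left 15075 genes for testing. The RNA came from RPE, the retinal pigment epithelium that supports the photoreceptors, of aged mice given an adeno-associated virus (AAV) carrying GFP or GSTA4, a glutathione transferase. Tissue was taken 12 weeks later, and there were 3 AAV-GFP and 4 AAV-GSTA4 libraries. The labels give no strain, age in numbers, promoter, dose or time of day of collection. They do not say whether each library is a separate animal, so p-values measure the spread between these libraries only.

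The clock is a feedback loop of transcription. CLOCK and ARNTL (also called BMAL1) form a dimer that binds E-box elements and activates the Per, Cry, Nr1d and Dbp genes; PER and CRY proteins then repress the dimer, and the nuclear receptors NR1D1 and NR1D2 (REV-ERBs) repress Arntl through elements that ROR receptors also bind. In the tissues of a mouse kept in a light cycle, Nr1d1 and Dbp peak at about the opposite time of day to Arntl, with the Per genes after Dbp and Cry1 later still. The RPE is known for its own rhythm, which times the daily uptake of shed photoreceptor tips.

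Short motifs stand for some of the elements named above, and promoters were searched for their letters. The 4 windows printed here were picked because they hold such motifs in single or repeated copies. The windows are the bases before an annotated start, from RefSeq (GRCm38.p6), with exon bases of other starts left out, and they read 5′ to 3′ on the gene's strand. Capitals mark CACGTG (the E-box), TTATGTAA (a D-box, the element of the Dbp family) or GGTCA, the core of ROR and REV-ERB sites, which reads TGACC on the other strand. They are Arntl at chr7:113207215-113207464 (plus strand), Cry1 at chr10:85185065-85185304 (minus), Per3 at chr4:151044666-151044915 (minus) and Ciart, a clock-controlled repressor of CLOCK and ARNTL that comes up again in the results, at chr3:95882252-95882478 (minus).
Arntl: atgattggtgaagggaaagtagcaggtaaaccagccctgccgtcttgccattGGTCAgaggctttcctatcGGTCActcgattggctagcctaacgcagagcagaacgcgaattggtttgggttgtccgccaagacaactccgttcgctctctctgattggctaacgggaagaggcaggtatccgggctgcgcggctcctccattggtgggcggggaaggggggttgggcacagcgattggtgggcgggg
Cry1: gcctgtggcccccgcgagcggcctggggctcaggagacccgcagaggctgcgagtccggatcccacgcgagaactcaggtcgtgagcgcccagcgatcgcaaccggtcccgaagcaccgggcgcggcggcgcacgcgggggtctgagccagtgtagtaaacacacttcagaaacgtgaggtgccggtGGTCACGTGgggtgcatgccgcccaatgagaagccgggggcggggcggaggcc
Per3: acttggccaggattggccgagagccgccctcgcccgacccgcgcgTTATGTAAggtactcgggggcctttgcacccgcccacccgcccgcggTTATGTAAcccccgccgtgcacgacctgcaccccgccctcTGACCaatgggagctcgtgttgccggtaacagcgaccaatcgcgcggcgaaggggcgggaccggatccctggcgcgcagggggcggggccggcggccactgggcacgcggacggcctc
Ciart: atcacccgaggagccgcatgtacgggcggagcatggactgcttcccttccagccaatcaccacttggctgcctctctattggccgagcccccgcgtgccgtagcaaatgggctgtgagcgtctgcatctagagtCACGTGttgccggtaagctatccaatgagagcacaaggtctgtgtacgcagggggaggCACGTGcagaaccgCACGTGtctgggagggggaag

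Arntl held 2 copies of GGTCA, Per3 held 2 D-boxes and 1 TGACC, and Ciart held 3 E-boxes. In Cry1 the GGTCA and the CACGTG overlapped within GGTCACGTG. The motifs were searched on both strands in the 250 bases before each of 32851 RefSeq starts, and 9 of the 10 clock genes were matched, with 13 starts; the promoter of Per2 was not analysed here. CACGTG was present before 2 of the 13 starts, those of Per1 and Cry1, against 6.02% of all starts, and GGTCA before 8 of the 13 against 35.2%. By gene, GGTCA was present for 7 of the 9. The windows of the Arntl starts overlap, so the same 2 copies were counted for each. TTATGTAA was present before 1 of the 13, that of Per3, against 0.819% of all starts, and 0.0183% of starts held 2 or more copies. Of all starts, 0.0609% held 3 or more copies of CACGTG, as Ciart did, and 8.16% held 2 or more of GGTCA, as Arntl did. The cAMP element TGACGTCA was before none of the 13 starts and before 1.55% of all starts. None of these motifs was present before the starts of Nr1d1 or Dbp. These matches describe letters in a window and not sites in use.

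Libraries held 15329181 to 28998964 counts, and the 10 genes had 67 to 5630 counts each. The library AAV-GFP 3 stood apart. Its log2 CPM correlated with those of the remaining libraries at 0.838 on average, against 0.910 to 0.926 for the others, and its scaling factor was 1.36. Counts of the row hGSTA4, read from its name as the transgene, were 3, 1 and 1 in AAV-GFP and 4209, 5239, 45 and 1184 in AAV-GSTA4, whereas d2EGFP counts were 99, 3970 and 2361 in AAV-GFP and 163, 64, 7 and 26 in AAV-GSTA4, so that AAV-GFP 1 had fewer than AAV-GSTA4 1. RPE markers as a set were abundant in all libraries. Levels are in CPM (counts relative to the library total, scaled by the trimmed-mean method, TMM). The 16 RPE markers summed to 25295 to 75061 CPM in AAV-GFP and 64665 to 115549 CPM in AAV-GSTA4. Rgr was a large part of the sums, at 12273 to 37709 CPM in AAV-GFP and 34371 to 61493 CPM in AAV-GSTA4. Best1 was low, at 1.15 to 3.32 CPM over the libraries. Rdh5, Lrat, Stra6 and Otx2 were higher in AAV-GSTA4 without overlap. By log2 fold change 12 of the 16 were higher and 4 lower, with a median of 0.58. The lower ones were Pmel (-0.70), Tyrp1 (-0.47), Dct (-0.07) and Rdh10 (-0.03). Photoreceptor RNA differed too. The 19 rod markers summed to 18635, 30963 and 47585 CPM in AAV-GFP and to 17086, 14560, 16086 and 9732 CPM in AAV-GSTA4, and 9 of them did not overlap, all lower, among them Gngt1, Pde6b, Pde6g, Cnga1, Sag, Pdc, Prph2 and Nrl. Over all genes tested 12.0% did not overlap, 6.44% higher and 5.61% lower, which is the share to set beside each marker list. The 11 inner retina markers summed to 990 to 1131 CPM in AAV-GFP and 334 to 742 CPM in AAV-GSTA4, with Pcp2, Slc17a6 and Rbpms lower without overlap. The 9 macrophage markers summed to 445 to 831 CPM in AAV-GFP and 647 to 902 CPM in AAV-GSTA4. Csf1r was higher, and Aif1 and C1qc were lower, without overlap. By log2 fold change only Csf1r was higher and 8 were lower, with a median of -0.39. Csf1r was a large part of the sums, at 258, 239 and 127 CPM in AAV-GFP and 520, 291, 568 and 421 CPM in AAV-GSTA4. The 7 endothelial markers summed to 34.3 to 143 CPM in AAV-GFP and 37.3 to 56.8 CPM in AAV-GSTA4. Tek was higher without overlap, while 6 of the 7 were lower by log2 fold change, with a median of -0.60. In bulk RNA, fewer cells of a type and less RNA per cell cannot be told apart.

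Per kilobase of merged exon (GENCODE M21, GRCm38), the REV-ERB gene Nr1d2 had the highest level, 39.8 ± 8.60 CPM per kb (SD, n = 7 libraries of both groups). Nr1d1 followed at 27.6 ± 9.44 and the cryptochrome gene Cry2, coding for a repressor of the dimer, at 14.0 ± 3.44 CPM per kb. These 3 steps were clear in the libraries: Nr1d2 exceeded Nr1d1 in 6 of 7, Nr1d1 exceeded Cry2 in 7 of 7 and Cry2 exceeded Dbp in 7 of 7. Below them lay a band of 6 genes: Dbp at 5.81 ± 0.769, Clock at 5.75 ± 1.32, Per2 at 5.15 ± 1.80, Cry1 at 4.48 ± 1.30, Per3 at 4.24 ± 1.39 and Arntl at 3.45 ± 1.79 CPM per kb. Neighbours in this band changed places, the upper gene being higher in 3 to 5 of the 7 libraries. Part of this went with the group: Per2 over Cry1, and Per3 over Arntl, each held in 4 of 4 AAV-GSTA4 and 0 of 3 AAV-GFP libraries. Within this band Per2 had the lowest mean in AAV-GFP (3.30 ± 0.357 CPM per kb, SD, n = 3) and the highest in AAV-GSTA4 (6.54 ± 0.641, SD, n = 4). Per1 was lowest at 1.82 ± 0.988 CPM per kb and lay below Arntl in 6 of 7 libraries. Within each paralog family the means over the libraries differed: Nr1d2 over Nr1d1, Cry2 over Cry1, and Per2 and Per3 over Per1. In AAV-GFP 3, however, Per1 (3.42 CPM per kb) lay above Per2 (2.98 CPM per kb).

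**Figure D1:**
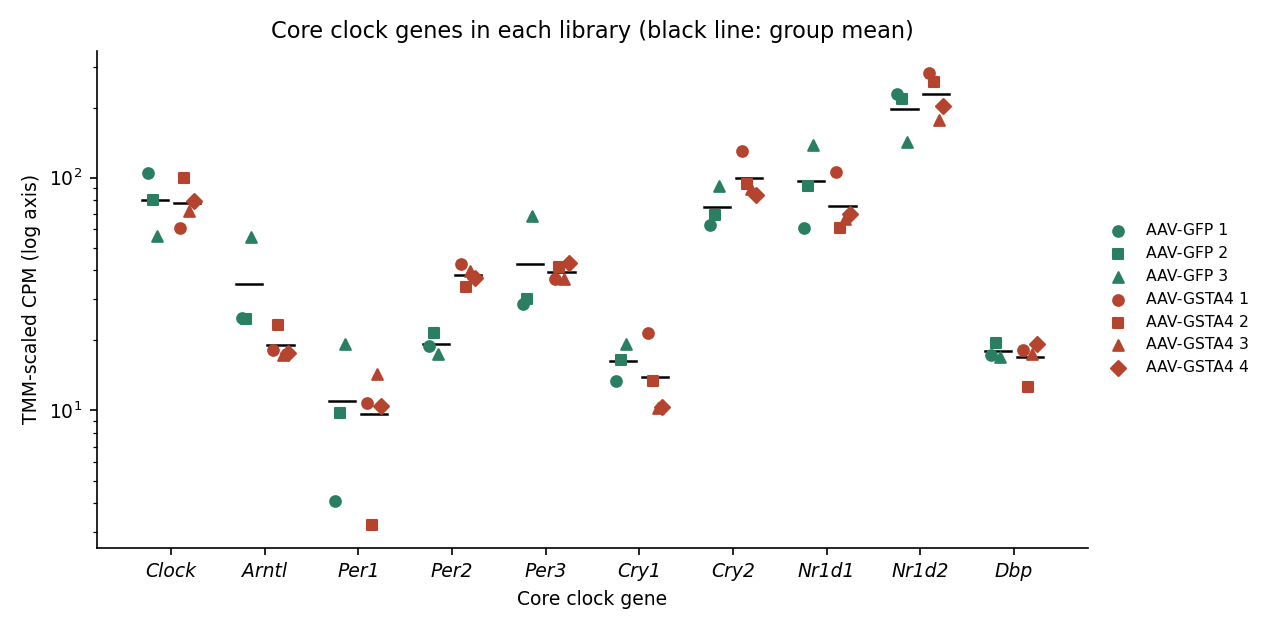
TMM-scaled CPM (log axis) of the 10 core clock genes in each library, green for AAV-GFP (n = 3) and red for AAV-GSTA4 (n = 4), with marker shapes for replicates and black lines for group means. Per2 lies between 17.5 and 21.6 CPM in AAV-GFP and between 33.9 and 42.6 CPM in AAV-GSTA4, and the 2 groups also separate for Arntl, in the opposite direction.

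AAV-GSTA4 was then compared with AAV-GFP. Per2 was about 2 times as high in AAV-GSTA4 (1.98-fold) and Arntl about 0.545 times as high, and these were the clock genes with the clearest differences, but neither passed the test over all genes. In the quasi-likelihood test of edgeR, with p-values adjusted by Benjamini-Hochberg, 0 of the 10 genes had an adjusted p under 0.05, and the background was the same: 0% of the 15075 genes passed, the smallest adjusted p being 0.363. At an unadjusted p under 0.05 there were 2 of the 10, Per2 higher and Arntl lower, beside 11.9% of all genes (5.27% higher and 6.63% lower). The same 2 genes were those whose groups did not overlap, beside 12.0% of all genes (6.44% higher and 5.61% lower), so these counts are near the background. The median log2 fold change of the 10 genes was -0.10, with 3 higher and 7 lower, and that of all genes was -0.07. With library totals in place of TMM scaling the median of all genes was -0.37, and 11.1% of the genes with an unadjusted p under 0.05 were higher, against 44.3% with TMM. Relative to that median Per2 stood at 1.07 and Arntl at -0.89.

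Per2 (chr1:91415982-91459324, minus strand) codes for PER2, a repressor of CLOCK and ARNTL that is needed for a lasting rhythm. Its levels were 18.9, 21.6 and 17.5 CPM in AAV-GFP and 42.6, 33.9, 39.7 and 36.9 CPM in AAV-GSTA4. Every AAV-GSTA4 library lay above every AAV-GFP library, and the gap between the groups was wider than the range within either of them. The means were 19.3 ± 2.09 CPM (SD, n = 3) and 38.3 ± 3.75 CPM (SD, n = 4). The log2 fold change was 0.99 ± 0.21 (SE; 95% interval 0.52 to 1.45), with an unadjusted p of 0.000879 and an adjusted p of 0.363 in edgeR, and Per2 ranked 21 of 15075 genes by p. Other tools on the same counts placed it on both sides of the threshold: its adjusted p was 0.0078 in DESeq2, 0.0589 in limma-voom with quality weights, and 0.0456 in limma-voom with robust moderation. Over 20 alternative settings its log2 fold change stayed between 0.70 and 1.08.

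Arntl (chr7:113207465-113314126, plus strand) codes for the partner of CLOCK and is a member of the loop repressed by the REV-ERBs. Its levels were 25.0, 24.7 and 55.5 CPM in AAV-GFP and 18.2, 23.2, 17.3 and 17.7 CPM in AAV-GSTA4. The groups did not overlap, although AAV-GFP 1 and 2 lay close to AAV-GSTA4 2, and AAV-GFP 3 lay far above the rest. The log2 fold change was -0.88 ± 0.32 (SE; 95% interval -1.59 to -0.16), with an unadjusted p of 0.0212 and an adjusted p of 0.374 in edgeR. Without AAV-GFP 3 it was -0.38 ± 0.23, with an unadjusted p of 0.136 in edgeR. AAV-GFP 3 also had the highest sum of rod markers, and with a rod score as covariate Arntl stood at -0.18 ± 0.45 and Per2 at 1.02 ± 0.33. The rod sums did not overlap between the groups (18635 to 47585 CPM in AAV-GFP, 9732 to 17086 CPM in AAV-GSTA4). Rod content and treatment therefore cannot be told apart in that fit. Without AAV-GFP 1, the library with little d2EGFP, Arntl was at -1.06 and Per2 at 0.97.

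Clock (chr5:76209868-76304792, minus strand), the partner of Arntl in the activating dimer, had 105, 80.2 and 56.2 CPM in AAV-GFP and 60.8, 99.5, 72.2 and 79.0 CPM in AAV-GSTA4. The groups overlapped throughout, and the log2 fold change of -0.05 ± 0.26 (SE) had a 95% interval of -0.64 to 0.55. Its highest and lowest libraries were both AAV-GFP.

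The other period genes did not share the pattern of Per2. Per1 (chr11:69095217-69109960, plus strand), a period gene that light and glucocorticoids induce quickly, had 4.10, 9.73 and 19.3 CPM in AAV-GFP and 10.7, 3.21, 14.3 and 10.4 CPM in AAV-GSTA4. It varied most of the 10 genes, by 2.55 on the log2 scale over the 7 libraries, and its log2 fold change was -0.19 ± 0.58 (SE). Its lowest count was 67, in AAV-GSTA4 2, with a 95% Wilson interval of 52.8 to 85.1 counts, which covers counting error only. Per3 (chr4:151003652-151044665, minus strand), a period gene that mice can lose while keeping their rhythm, had 28.8, 30.0 and 68.5 CPM in AAV-GFP and 36.7, 41.2, 36.8 and 43.1 CPM in AAV-GSTA4. AAV-GFP 3 was again above every other library while AAV-GFP 1 and 2 were below them, and the log2 fold change was -0.10 ± 0.31 (SE). Without AAV-GFP 3 it was 0.43, and the groups no longer overlapped, as for 24.6% of all genes tested in that setting.

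Of the cryptochromes, the direct repressors of the dimer, Cry1 (chr10:85131700-85185064, minus strand) had 13.3, 16.5 and 19.3 CPM in AAV-GFP and 21.5, 13.4, 10.3 and 10.3 CPM in AAV-GSTA4. AAV-GSTA4 3 and 4 were the lowest libraries and AAV-GSTA4 1 the highest, and the log2 fold change was -0.24 ± 0.33 (SE). Cry2 (chr2:92403646-92434043, minus strand) had 62.4, 69.1 and 92.2 CPM in AAV-GFP and 130, 94.2, 89.6 and 83.9 CPM in AAV-GSTA4. Here AAV-GFP 3 lay within the range of AAV-GSTA4 while AAV-GFP 1 and 2 lay below it. The log2 fold change was 0.41 ± 0.24 (SE, 95% interval -0.12 to 0.95, edgeR adjusted p = 0.502). Without AAV-GFP 3 it was 0.60 with no overlap, beside 24.6% of all genes tested without overlap in that setting.

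The REV-ERB genes had fold changes of opposite sign with TMM scaling, although Nr1d2 was at -0.031 with library totals, which was 0.34 above the all-gene median, and each had overlapping groups. Nr1d1 (chr11:98767932-98775333, minus strand) had 61.1, 92.1 and 138 CPM in AAV-GFP and 106, 60.7, 66.6 and 69.7 CPM in AAV-GSTA4, a log2 fold change of -0.36 ± 0.31 (SE). Nr1d2 (chr14:18204054-18239127, minus strand) had 230, 217 and 143 CPM in AAV-GFP and 280, 257, 178 and 204 CPM in AAV-GSTA4, a log2 fold change of 0.22 ± 0.26 (SE). AAV-GFP 3 had the highest Nr1d1 and the lowest Nr1d2 of all libraries, and per kilobase it was the library in which Nr1d1 exceeded Nr1d2 (44.9 against 26.4 CPM per kb).

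Dbp (chr7:45705088-45710203, plus strand), a direct output of the dimer that drives D-box genes and swings widely over the day in many tissues, had 17.4, 19.6 and 17.0 CPM in AAV-GFP and 18.3, 12.6, 17.5 and 19.2 CPM in AAV-GSTA4. It was the steadiest of the 10 genes, with a range of 0.63 on the log2 scale over the 7 libraries; 7.09% of all genes tested had a smaller range, against 76.4% for Per1. The range of the 10 genes had a median of 1.12, beside 1.53 for all genes tested. The log2 fold change of Dbp was -0.09 ± 0.25 (SE; 95% interval -0.64 to 0.46), and AAV-GSTA4 2 was the low library. Of the merged exon bases of Dbp, 539 (18.0%) are shared with Sphk2 on the opposite strand, and 263 (8.55%) of those of Nr1d1 with Thra. The strand setting of the counting is not given in the sources used here, so reads in these stretches cannot be assigned to a strand; the log2 fold changes of the partners were 0.72 ± 0.31 (SE) for Sphk2 and -0.53 ± 0.27 (SE) for Thra.

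**Figure D2:**
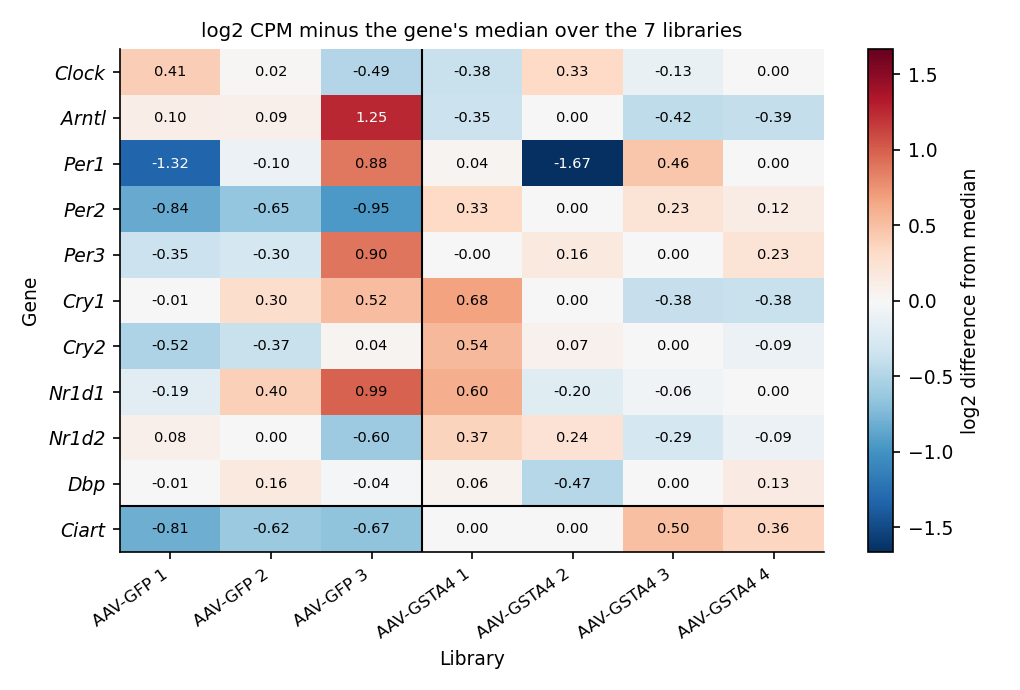
Log2 CPM of each gene in each library minus that gene's median over the 7 libraries (red higher, blue lower), with the core clock genes above the horizontal line and Ciart below it; the vertical line separates the groups. AAV-GFP 3 has the highest value of Arntl (1.25), Per1 (0.88), Per3 (0.90) and Nr1d1 (0.99), while Per2 and Ciart are below their medians in all 3 AAV-GFP libraries.

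To compare clock phase between libraries, the log2 level of a gene was subtracted from that of a gene that peaks at another time of day, within each library; these differences were not tested. Arntl minus Dbp, which in a running clock is highest near the Arntl peak, was 0.52, 0.33 and 1.70 in AAV-GFP and -0.01, 0.88, -0.01 and -0.12 in AAV-GSTA4. It spanned 1.82 on the log2 scale and the groups overlapped through AAV-GSTA4 2. Arntl minus Nr1d1 was -1.29, -1.90 and -1.32 in AAV-GFP and -2.54, -1.38, -1.94 and -1.97 in AAV-GSTA4, again with overlap. The 2 differences did not order the libraries alike: AAV-GFP 3 had the highest Arntl minus Dbp but not the highest Arntl minus Nr1d1, its Nr1d1 being the highest of all as well. Cry1 minus Dbp was -0.38, -0.24 and 0.17 in AAV-GFP and 0.24, 0.09, -0.76 and -0.89 in AAV-GSTA4, so that AAV-GSTA4 1 and 2 stood on 1 side of the AAV-GFP 1 and 2 values and AAV-GSTA4 3 and 4 on the other.

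Arntl minus Per3 was the exception among the 4 differences, because its groups did not overlap. It was -0.20, -0.28 and -0.30 in AAV-GFP and -1.01, -0.82, -1.08 and -1.28 in AAV-GSTA4. The mean was -0.26 ± 0.05 (SD, n = 3) and -1.05 ± 0.19 (SD, n = 4), a difference of -0.79 that lay between -0.86 and -0.71 when any library was left out. The large excess of AAV-GFP 3 in Arntl was matched by a like excess in Per3, so that this library no longer stood apart. Arntl separated the groups before any subtraction, and 25.5% of all genes subtracted from Arntl gave groups that did not overlap, 25.2% with AAV-GSTA4 lower. Of the 3 differences that contain Arntl, 1 did so, which is near that background. The time of collection is not given in the labels, and a difference in it between groups cannot be told apart from a difference in treatment.

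**Figure D3:**
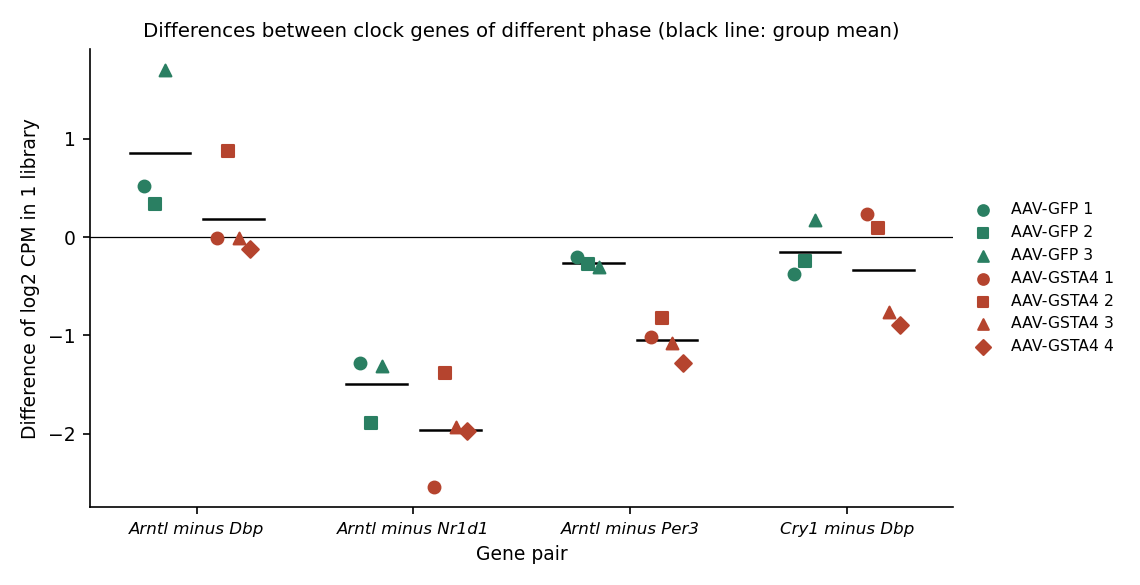
Difference in log2 CPM between clock genes within each library for 4 gene pairs, green for AAV-GFP (n = 3) and red for AAV-GSTA4 (n = 4), with black lines for group means. Only Arntl minus Per3 has groups that do not overlap, at -0.30 to -0.20 in AAV-GFP and -1.28 to -0.82 in AAV-GSTA4.

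Across the 7 libraries, the relation of Arntl to each of the other 9 genes was computed on log2 CPM, with exact two-sided permutation tests adjusted over the 9 relations. Arntl and Per2 fell into separate clusters by group, so no pooled correlation is given for them. None of the remaining 8 passed an adjusted p under 0.05 (Pearson adjusted p from 0.337 to 0.726, permutation test). Arntl and Nr1d1, which peak at opposite times in a running clock, had a Pearson r of 0.63 (exact permutation p = 0.117, adjusted 0.337) and a Spearman coefficient of 0.25 (exact permutation p = 0.595, adjusted 0.906). Without the 2 libraries farthest from the Arntl median, AAV-GFP 3 and AAV-GSTA4 3, r was -0.37. Arntl and Per3 had r = 0.65 (exact permutation p = 0.138, adjusted 0.337) and a Spearman coefficient of -0.07 (exact permutation p = 0.906, adjusted 0.906), and r was -0.71 without those libraries. Arntl and Dbp had r = -0.14 (exact permutation p = 0.726, adjusted 0.726) and a Spearman coefficient of -0.36 (exact permutation p = 0.444, adjusted 0.906), and r was -0.30 without them. The positive signs for Nr1d1 and Per3 rested on AAV-GFP 3. Without that library alone r was -0.17 and -0.60, and without AAV-GSTA4 3 alone it was 0.59 and 0.66. The values also depended on scaling. With library totals in place of TMM, r with Arntl was 0.81 for Nr1d1, 0.83 for Per3 and 0.60 for Dbp, so that the sign for Dbp changed. None of these passed the adjusted threshold.

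Of 11100 other genes whose log2 CPM averaged 2 or more, those most like Arntl over the 7 libraries were Ttpal, Cep68, Atp2b1, Camk1d and Fam135b, with Pearson r of 0.98 to 1.00, and 193 genes had r above 0.9. Without AAV-GFP 3 these 5 kept r of 0.86 to 0.99. Those most like Dbp were Efna5, B4galt2, Stard5, Mgll and Ube2d2a, with r of 0.94 to 0.98, and 23 genes had r above 0.9. No core clock gene could enter these lists, since they were limited to other genes, and the points share library preparation and depth.

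The rest of the pathway was examined as a list of 19 genes: paralogs of the activators, ROR receptors, output factors and repressors, and enzymes that modify or degrade clock proteins. All 19 were tested; 0 passed the adjusted threshold in edgeR (0% of all genes), and 1 had an unadjusted p under 0.05, Ciart, which was higher in AAV-GSTA4. It was also the only gene of the 19 whose groups did not overlap. Over all genes 11.9% had such a p and 12.0% did not overlap, so these counts are not above the background. The median log2 fold change was -0.11, with 8 higher and 11 lower, beside -0.07 for all genes. Ciart, the repressor whose promoter held 3 E-boxes, had 20.6, 23.5 and 22.7 CPM in AAV-GFP and 36.2, 36.3, 51.3 and 46.5 CPM in AAV-GSTA4. The AAV-GFP libraries lay close together and well below all AAV-GSTA4 libraries, with a log2 fold change of 0.94 ± 0.22 (SE). Its unadjusted p was 0.00183 and its adjusted p 0.363 in edgeR, whereas its adjusted p was 0.0227 in DESeq2, 0.0589 in limma-voom and 0.0456 in limma-voom with robust moderation.

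**Figure D4:**
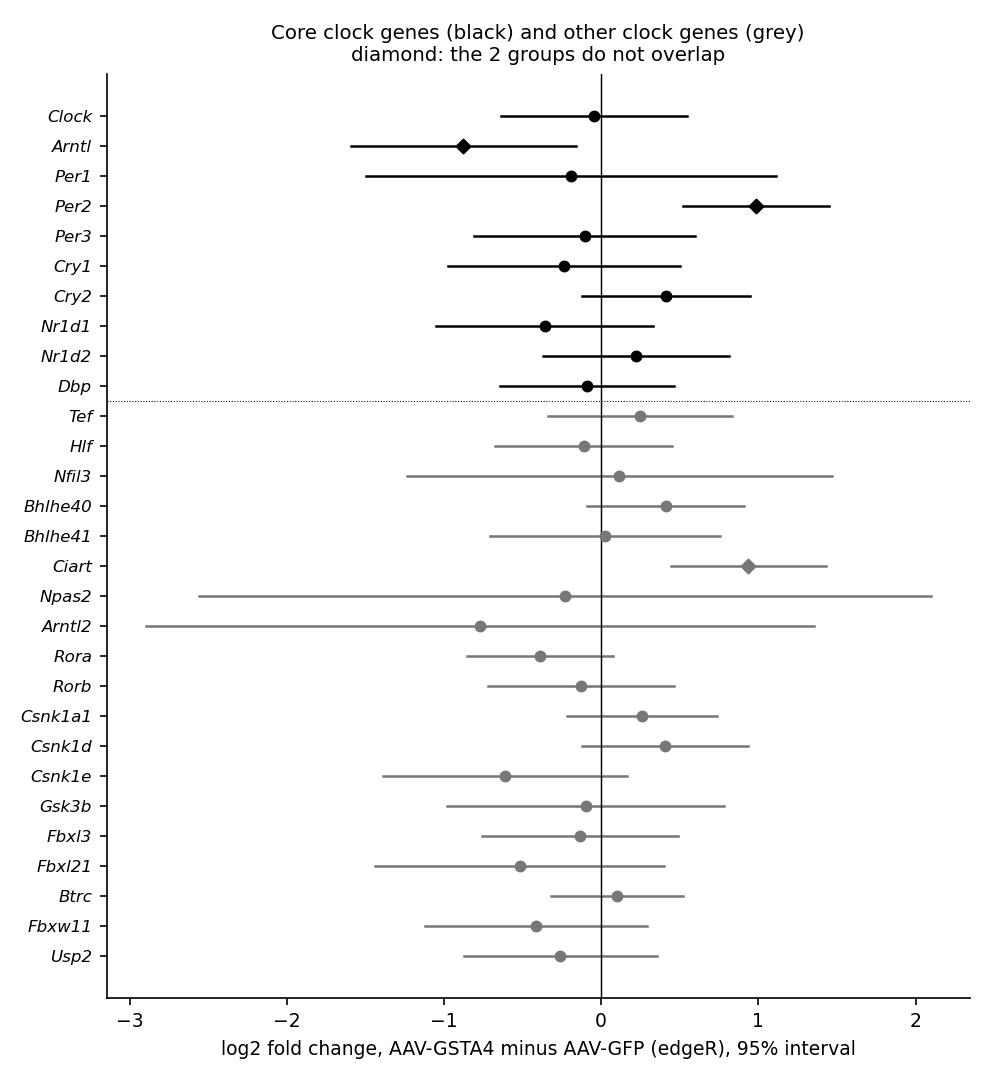
Log2 fold change of AAV-GSTA4 over AAV-GFP from edgeR, with 95% intervals, for the 10 core clock genes (black) and 19 other clock genes (grey); diamonds mark genes whose groups do not overlap. The 3 diamonds are Arntl at -0.88, Per2 at 0.99 and Ciart at 0.94, and the intervals of the other core genes include 0.

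Per1 and Per2 are also set by inputs from outside the loop. A list of 6 glucocorticoid-responsive genes, which includes Per1, had 0 genes with an unadjusted p under 0.05 (median log2 fold change -0.16, range -0.83 to 0.51). Of 5 immediate early genes, 4 were tested and 0 had an unadjusted p under 0.05 (median 0.21, range -0.69 to 0.36). No gene of either list had groups that did not overlap. These counts stand beside 11.9% of all genes at such a p and 12.0% without overlap.

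Libraries differed in transcripts of the Y chromosome: AAV-GFP 1 and AAV-GSTA4 3 and 4 had them, and the other 4 libraries were nearly without. Among the 3 libraries with Y-linked transcripts, Per2 was 18.9 CPM in AAV-GFP and 36.9 to 39.7 CPM in AAV-GSTA4, and among the 4 without it was 17.5 to 21.6 and 33.9 to 42.6 CPM. The difference in mean log2 CPM was 1.02 and 0.96. Arntl was lower in AAV-GSTA4 in each class (-0.51 and -0.85), and Ciart was higher in each (1.24 and 0.65). The class with Y-linked transcripts held only 1 AAV-GFP library. In the other class Arntl was 24.7 and 55.5 CPM in AAV-GFP, the higher being AAV-GFP 3, against 18.2 and 23.2 CPM in AAV-GSTA4. With the Y-linked class as a covariate in edgeR, the log2 fold change of Per2 was 0.99 (unadjusted p = 0.00168, adjusted 0.448), that of Arntl -0.78 (unadjusted p = 0.0357, adjusted 0.482) and that of Ciart 0.88 (unadjusted p = 0.00394, adjusted 0.448).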

How the data were processed

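RNA-seq of polyadenylated RNA from 7 libraries of aged mouse RPE was analysed, with full-length cDNA made from low input and fragmented by transposase, per the labels' protocols. The authors deposited raw read counts per gene symbol; the submitters' processing notes name STAR 2.7.1a, featureCounts 1.6.2 and the builds GRCm38 (mm10) and GRCh38 (hg38), without saying what each served for. Strand and multi-mapping settings are not given in the sources used here. The labels mention no molecular identifiers, and PCR copies may be counted more than once.

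The counts were tested with edgeR 4.0.16 (R 4.3.3): the quasi-likelihood F-test with robust dispersion, TMM scaling and the default expression filter, with the group as the only factor. Benjamini-Hochberg adjustment ran over all genes tested, at a threshold of 0.05. Standard errors are the absolute log2 fold change over the root of F. Log2 CPM used a prior count of 2. Groups do not overlap where every library of 1 group exceeds every library of the other in CPM. Of repeated symbols, 26 extra rows were kept as separate rows. All 21 pairs of libraries differed by more than sampling noise (chi-square per gene at least 57.5).

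All members are named. Of the other lists, genes past the adjusted threshold or without overlap are named, and for Arntl and Dbp the 5 most similar other genes whose log2 CPM averaged 2 or more. Results for some genes are not reported here, and these were left out of the list of other clock genes. The members and lists were chosen with earlier results of these data known. The motifs, the printed promoters and the overlapping partners Sphk2 and Thra were chosen after values were seen, as was the decision to give no pooled correlation for Per2.

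Alternatives were median-of-ratios scaling, library totals, no filter, a minimum of 10 counts per library, blocks for replicate numbers of titles or of library names, DESeq2 1.42.0, limma-voom with quality weights (limma 3.58.1), a rod score or Y-linked covariate, and each library left out. Leaving out AAV-GFP 3 and AAV-GSTA4 2 together, robust moderation in limma-voom, and DESeq2 on all genes with a count were added after seeing the data.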

Additional observations from a re-analysis of the deposited data

Results flagged for a closer look

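Of 15 results examined in the 4 AAV-GSTA4 libraries (the CPM of each named clock gene and the 4 phase differences), 2 had a library far from the others; chance alone gives about 5% of groups such a library, and the results share Arntl. Arntl in AAV-GSTA4 2 was 23.2 CPM while the other 3 libraries had 17.3 to 18.2 CPM, a gap of 0.861 of the whole range. Arntl minus Dbp in AAV-GSTA4 2 was 0.88 on the log2 scale while the others had -0.12 to -0.01, a gap of 0.887 of the range. The same library had the lowest Dbp and Per1 of the 7, and its lens fibre markers summed to 5939 CPM against 65.6 to 379 CPM in the other libraries. Their part in these values was not tested.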

How the results depend on the processing

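Per2, Arntl, Ciart and Cry2 kept their direction in all 20 alternatives, at log2 fold changes of 0.70 to 1.08, -1.26 to -0.18, 0.62 to 1.03 and 0.08 to 0.88. Over the members and Ciart, 189 values kept direction and side of the threshold, 25 changed sign and 6 passed it. Those 6 were Per2 and Ciart, at 1.00 and 0.96 in DESeq2, 1.00 and 0.96 in DESeq2 on all genes with a count, and 0.88 and 0.98 in limma-voom with robust moderation, 1 member (Per2) being called each time. Their adjusted p over the alternatives ranged from 0.00728 to 0.865 for Per2 and from 0.0213 to 0.865 for Ciart. Of all genes, edgeR called 0, DESeq2 166 (172 unfiltered), and limma-voom 0, or 146 with robust moderation. Both versions of limma-voom were run, and the default was taken as the planned one after both results were known.

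Each sign change had an unadjusted p above 0.05. Nr1d2 was -0.031 with library totals, -0.028 in limma-voom of either kind, -0.041 with the rod score and -0.017 without AAV-GFP 3 and AAV-GSTA4 2. Per1 was 0.35 with the block by library names, 0.26 in limma-voom of either kind and 1.30 with the rod score. It was 0.47 without AAV-GFP 3, 0.11 without AAV-GSTA4 2 and 0.77 without both (no overlap). Per3 was 0.38 in limma-voom of either kind and 0.54 with the rod score. It was 0.43 without AAV-GFP 3 and 0.41 without both (no overlap in either). Dbp was 0.028 with the block by library names and 0.038 without AAV-GSTA4 2. Cry1 was 0.30 with the rod score, and Nr1d1 0.46 with it and 0.074 without both libraries. Clock was 0.19 without AAV-GFP 1, 0.078 without AAV-GSTA4 1 and 0.0041 without AAV-GSTA4 3. Their lowest values with any library left out were -0.24 for Clock, -0.58 for Per1, -0.31 for Per3 and -0.13 for Dbp. The cause was not tested.

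Members with an unadjusted p under 0.05 numbered 1 to 2 with any library left out: Per2 in every case, joined by Cry2 without AAV-GFP 3, by Arntl without AAV-GFP 1, AAV-GFP 2 or AAV-GSTA4 2, and by none without AAV-GSTA4 1, 3 or 4. In those fits 6.88% to 12.7% of all genes had such a p. In limma-voom the members numbered 3 (Arntl, Cry2 and Per2) with either moderation, beside 21.8% of all genes, or 21.7% with robust moderation. In the 19 other clock genes the number was 1 to 2 with any library left out (Ciart in every case, joined by Csnk1e without AAV-GSTA4 4). It was 3 with library totals (Ciart, Csnk1e and Rora; 15.9% of all genes), 2 in limma-voom of either kind (Arntl2 and Ciart) and 3 without AAV-GFP 3 and AAV-GSTA4 2 (Bhlhe41, Ciart and Csnk1d; 15.2% of all genes). Members without overlap numbered 2 to 4 with any library left out, 4 without AAV-GFP 3 (24.6% of all genes) and 6 without both libraries (36% of all genes). The Arntl relations that passed numbered 0 to 1: Cry1 did without AAV-GSTA4 1 (Pearson r = 0.89 over 6 libraries, exact permutation test, adjusted p = 0.0375). Per2, left out of that count, had had a Pearson adjusted p of 0.0143 (exact permutation test) over all 7 libraries.

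Deviations of same-numbered libraries had r of -0.09 to 0.01 by titles and -0.13 to 0.01 by library names. The labels do not say that equal numbers mean a pair, and these few values cannot decide it. With the replicate block by titles 1 member (Per2) and 1 other clock gene (Ciart) had an unadjusted p under 0.05, and genes at that p numbered 849 against 1794. With the block by library names the numbers were 2 and 1, with 1148 genes. Libraries 1 and 4 did not correlate best with their own number, while those numbered 3 did (r of 0.01).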

Other observations

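The level of the transgene differed widely among the AAV-GSTA4 libraries, and Per2 did not vary with it to a like extent. The hGSTA4 row had 222, 251, 2.64 and 43.7 CPM in AAV-GSTA4 1 to 4, and Per2 had 42.6, 33.9, 39.7 and 36.9 CPM. The library with the least hGSTA4 had the second highest Per2. The library with the most hGSTA4, AAV-GSTA4 2, had the lowest Per2 of its group and also the highest sum of lens fibre markers (5939 CPM). Arntl was 17.3 CPM in the library with the least hGSTA4 and 23.2 CPM in the library with the most. With 4 libraries no relation was tested.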
